A study of Homo sapiens with 6 samples.

Results

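The genes described here encode the mitochondrial ribosomal proteins, chosen as the protein-coding genes whose symbol begins with MRPL or MRPS and a number, together with DAP3. The rule found 79 of the 61533 gene rows in the count table, and used no measured value. It was chosen with earlier results of these data known. By the structure of the human mitochondrial ribosome, 51 of the products belong to the large subunit and 27 to the small subunit. MRPS36 belongs to neither, being a subunit of the alpha-ketoglutarate dehydrogenase complex (KGD4). Symbols and structure differ for 2 genes, since MRPS18A and MRPS30 encode large subunit proteins. RNA was sequenced from MDA-MB-231 cells, a human line established from a triple-negative breast cancer. The control group carried an empty vector and is given the genotype WT (3 libraries), and the other group (3 libraries) carried a short hairpin RNA that targets KDM2B, here called shKDM2B. KDM2B is a histone demethylase that also recruits a Polycomb complex to unmethylated CpG islands. No treatment other than the vectors is given, and the sources used here do not give the number of clones or hairpins behind the knockdown group.

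Mitochondrial ribosomes translate the few messenger RNAs of the mitochondrial genome, all of which encode subunits of the respiratory chain and the ATP synthase. Their ribosomal RNAs come from mitochondrial DNA, whereas every ribosomal protein is encoded in the nucleus, made in the cytosol and imported. The large subunit catalyses peptide bond formation and feeds the nascent chain towards the inner membrane, and the small subunit binds the messenger RNA and reads the codons. Some of the proteins have bacterial homologs, and the rest are found only in mitochondrial ribosomes.

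Libraries held 10190149 to 15737951 counts. KDM2B itself was counted 589, 714 and 902 times in the empty vector libraries and 153, 166 and 224 times in the shKDM2B libraries, which left 23.1% of its control level (log2 fold change -2.12). The line's markers VIM, CD44, AXL, MSN, CAV1 and FOSL1 had at least 2184 counts in every library. Of these VIM fell from 1295 ± 52.1 to 405 ± 10.2 CPM (counts relative to library size, scaled by TMM), a log2 fold change of -1.68, and CAV1 fell by 0.35 on the log2 scale. CD44 (log2 fold change 0.20), FOSL1 (0.20) and AXL (0.17) were called higher, and MSN was not called (-0.03). SPARC was low, at 4 to 36 counts, and was also called higher (2.21). Of 8 genes listed as low in this line, ESR1, PGR, KRT5, CDH1 and KRT14 had at most 6 counts in any library. The other 3 were present, with ERBB2 at 561 to 1001 counts, GATA3 at 55 to 115 and FOXA1 at 57 to 131, and FOXA1 was called higher (log2 fold change 0.46). The share of counts from the mitochondrial genome was 0.111 ± 0.0375% in empty vector against 0.326 ± 0.141% in shKDM2B (SD, n = 3 each). The nuclear noncoding RNA MALAT1 made up 0.101 ± 0.00576% against 0.287 ± 0.0354%, a 2.89-fold increase with separate groups, and small RNA genes 0.151 ± 0.0283% against 0.198 ± 0.0145%. The summed level of 7 endothelial markers ran from 57.8 to 65.1 CPM in empty vector and from 176 to 187 CPM in shKDM2B, carried by KDR and ESAM, while TEK, VWF, CDH5, PECAM1 and CLDN5 had at most 8 counts. The 10 leukocyte markers summed to 0.969 to 1.71 CPM and 3.84 to 4.80 CPM, mostly from CSF1R and CD14, with MS4A1, CD3E, CD3D and LYZ at 0. The 8 fibroblast markers summed to 1.59 to 1.90 CPM and 5.62 to 6.62 CPM, mostly from PDGFRB. The part of these shifts in the results below was not tested. In bulk RNA, fewer cells expressing a gene and less RNA per cell cannot be told apart.

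The promoters of 4 members are shown to set 3 of the strongly decreased genes beside a member that did not pass the test. Each is the RefSeq window of 300 bases on GRCh38.p14, from 250 before the annotated start to 50 after it, on the gene's strand. Capitals mark matches to the motifs searched. The motifs were the ETS core CCGGAAG, the YY1 core AAGATGGC, the E-box CACGTG, the short NRF1 form GCATGCGC and the full NRF1 core, which is the same word preceded by GC, the cyclic AMP response element TGACGTCA, and the ATF4 composite core TGATGNAA. All were searched on both strands. Where a gene has several windows, the one with most matches is shown, the first listed when equal. MRPL49 (chr11:65121933-65122232, plus strand), the gene with the largest decrease, shares this stretch with the start of FAU on the other strand, and its only match is an E-box. A further window of MRPL49, not shown, holds the YY1 core. MRPS21 (chr1:150293611-150293910, plus strand) and MRPS12 (chr19:38930694-38930993, plus strand), the 2 largest decreases of the small subunit, hold ETS cores. MRPS18A (chr6:43687742-43688041, minus strand), which did not pass the test, holds an ETS and a YY1 core, as MRPS12 does.
MRPL49: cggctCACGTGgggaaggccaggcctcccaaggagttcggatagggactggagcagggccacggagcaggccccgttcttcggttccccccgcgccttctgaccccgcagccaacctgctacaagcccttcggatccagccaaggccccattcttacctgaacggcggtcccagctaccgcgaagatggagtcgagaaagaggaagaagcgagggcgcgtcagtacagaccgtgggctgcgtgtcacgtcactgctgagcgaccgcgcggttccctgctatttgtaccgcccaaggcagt
MRPS21: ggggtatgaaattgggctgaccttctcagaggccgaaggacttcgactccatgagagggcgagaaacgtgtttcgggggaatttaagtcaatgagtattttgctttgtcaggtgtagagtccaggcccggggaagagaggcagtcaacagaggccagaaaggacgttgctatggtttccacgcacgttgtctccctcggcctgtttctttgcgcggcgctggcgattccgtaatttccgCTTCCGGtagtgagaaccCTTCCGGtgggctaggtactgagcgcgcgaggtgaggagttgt
MRPS12: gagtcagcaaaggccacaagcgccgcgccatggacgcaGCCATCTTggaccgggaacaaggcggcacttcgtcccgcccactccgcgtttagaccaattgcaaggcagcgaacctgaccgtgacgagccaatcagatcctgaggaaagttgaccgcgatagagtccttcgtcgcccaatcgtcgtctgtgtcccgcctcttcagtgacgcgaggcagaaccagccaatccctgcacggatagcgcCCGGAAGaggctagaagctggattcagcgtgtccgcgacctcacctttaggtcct
MRPS18A: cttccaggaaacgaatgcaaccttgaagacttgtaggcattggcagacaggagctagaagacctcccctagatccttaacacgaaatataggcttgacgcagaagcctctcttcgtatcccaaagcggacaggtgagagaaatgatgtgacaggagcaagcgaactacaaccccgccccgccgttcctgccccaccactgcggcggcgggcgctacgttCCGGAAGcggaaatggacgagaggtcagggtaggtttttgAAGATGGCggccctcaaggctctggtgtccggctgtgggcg

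Of the 71 members with a RefSeq window, 30 held the ETS core (42.3%, against 16.5% of all 15843 protein-coding genes in the table) and 21 held the YY1 core (29.6% against 4.66%). At least 1 of these 2 motifs was present in 60.6% of members and 20.0% of all genes, and both were present in 11.3% and 1.17%. Using only the first window of each gene, the shares were 40.8% against 14.2% for ETS and 28.2% against 3.91% for YY1. The E-box was in 14.1% of members and 10.9% of all genes, the short NRF1 form in 8.45% and 4.89%, the full NRF1 core in 1.41% and 1.99%, the cyclic AMP element in 1.41% and 3.00%, and the ATF4 core in 1.41% and 3.60%. The median number of CpG dinucleotides per window was 24 for members and 22 for all genes. These matches are descriptions of sequence and not bound sites. Shares of lower members were close with and without these motifs: 17 of 29 tested members with the ETS core were lower in shKDM2B (median log2 fold change -0.26), as were 23 of 41 without it (median -0.25). For the YY1 core the counts were 11 of 21 with it (median -0.23) and 29 of 49 without it (median -0.26). Over all genes tested, 30.4% were lower by the same test, described in the next paragraph.

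Of the 79 members, 78 had enough counts to be tested. By edgeR's quasi-likelihood test with Benjamini-Hochberg adjustment over all 14071 genes tested, 45 were lower in shKDM2B at an adjusted p under 0.05 (57.7%), where 30.4% of all genes tested were lower. In either direction 60.9% of all genes tested were called. No member was called higher by edgeR, where 30.5% of all genes tested were higher, although 3 members were higher at an unadjusted p under 0.05. DESeq2 called 40 members lower and 0 higher, and limma-voom 45 lower and 1 higher. The median log2 fold change of the 78 was -0.26 (quartiles -0.49 and -0.07), beside -0.01 over all genes tested, and 64 of the 78 values were negative. Most decreases were small. Of the 45, 34 were under 1.5-fold, 8 from 1.5-fold to under 2-fold and 3 at least 2-fold. The 11 decreases of at least 1.5-fold made up 14.1% of the members tested, where 13.6% of all genes tested fell that far. The 3 of at least 2-fold made up 3.85%, where 4.85% of all genes did. The 3 shKDM2B libraries lay below all 3 empty vector libraries for 45 members (32.5% of all genes tested did so) and above them for 2 members, MRPS16 and MRPS17 (33.0% of all genes). The 45 separated members were not the same set as the 45 called lower, of which 42 were separated and 3 overlapped. In the plot of fold changes most points of both subunits lie left of 0.

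**Figure D1:**
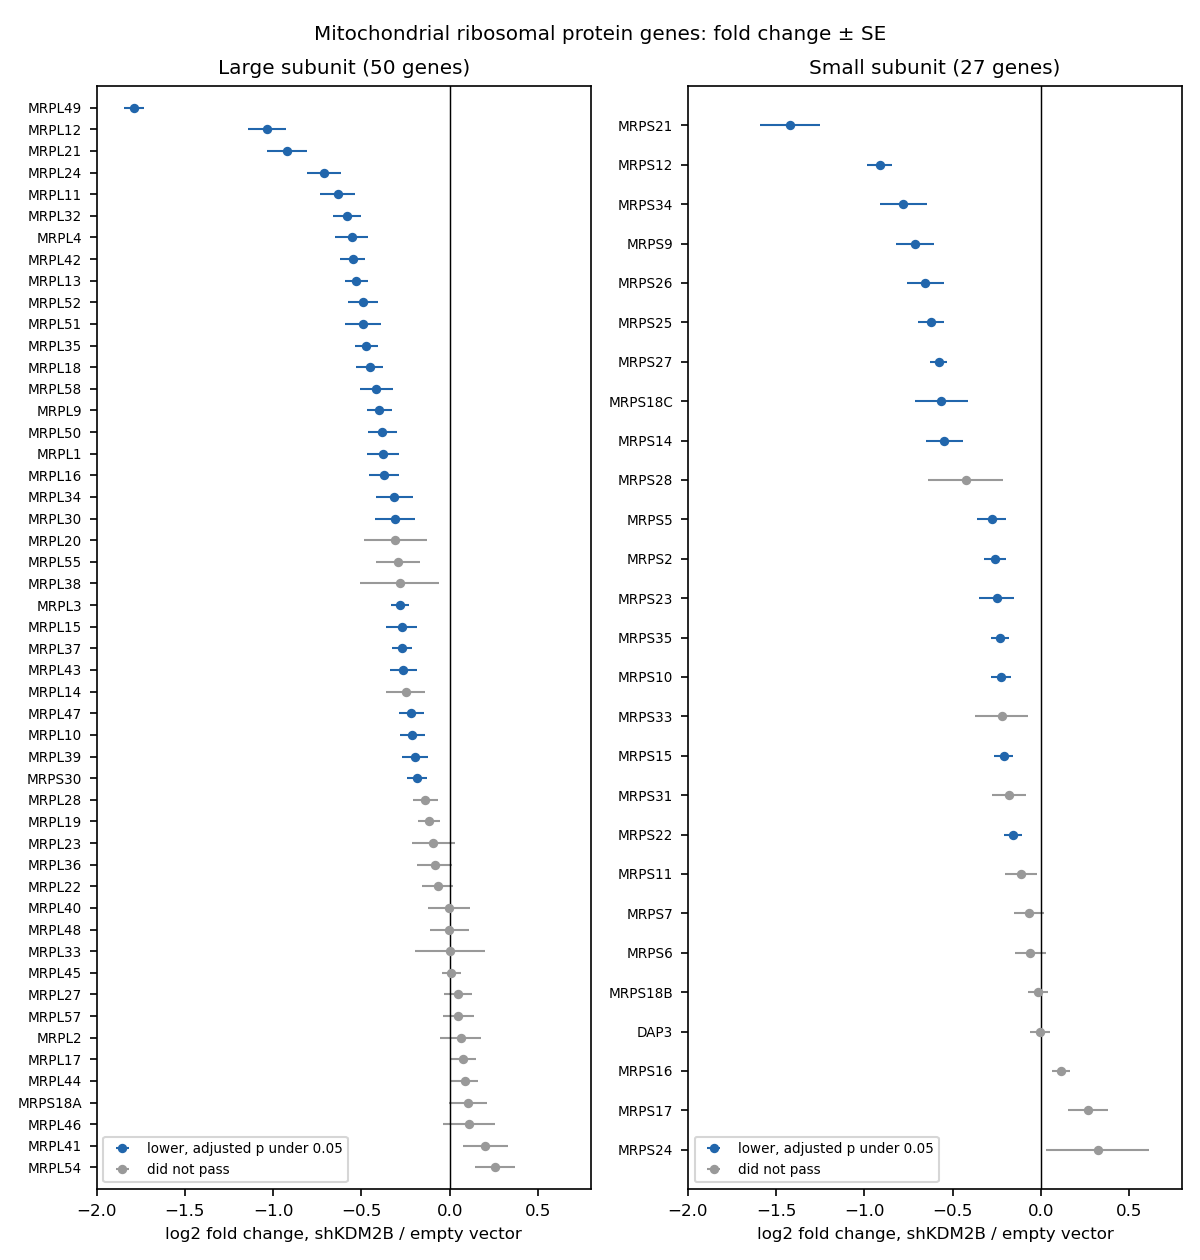
Log2 fold change (shKDM2B over empty vector) ± SE for the 50 large subunit and 27 small subunit genes tested, ordered by value, blue where lower at an adjusted p under 0.05 and grey where the test was not passed. MRPL49 at -1.79 and MRPS21 at -1.42 are the most negative of their subunits, and no gene right of 0 passed the test.

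The members' summed level gives the same direction library by library. They took 0.396%, 0.413% and 0.397% of counts in the empty vector libraries and 0.320%, 0.321% and 0.319% in the shKDM2B libraries. The groups did not overlap, and the shKDM2B libraries lay closer to each other. The median log2 difference of the 78 members from their empty vector mean was -0.26, -0.24 and -0.24 in the shKDM2B libraries and -0.02, 0.09 and -0.05 in empty vector replicates 1, 2 and 3. Empty vector replicate 2 thus stood higher than the other controls, and 51 of the 78 members had their highest control value there. Without that library, 44 members were lower, the median was -0.22, and 6 were called higher: MRPL17, MRPL41, MRPL44, MRPL54, MRPS16 and MRPS17. Over all genes, 9128 were called in either direction without it, in place of 8571 with all 6 libraries.

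The large and small subunits had close shares and medians. For all shares in this paragraph, 30.4% of all genes tested were lower. In the large subunit 28 of 50 tested genes were lower (56.0%), and the median of their log2 fold changes was -0.27. In the small subunit 16 of 27 were lower (59.3%), and the median was -0.23. Grouping by symbol gave 27 of 48 and 18 of 30. Summed over genes, the large subunit went from 2410 ± 93.0 to 1931 ± 20.0 CPM and the small subunit from 1554 ± 23.6 to 1298 ± 3.26 CPM (mean ± SD, n = 3 each). The ratio of large to small subunit transcripts, summed as CPM per kilobase of exon, was 1.89, 2.04 and 1.86 in the empty vector libraries and 1.87, 1.89 and 1.89 in the shKDM2B libraries. The shKDM2B ratios all lay within the empty vector range. Proteins with a bacterial homolog and those found only in mitochondria also had close shares: 27 of 46 (median -0.28) and 17 of 31 (median -0.22) were lower. MRPS18A and MRPS18B were counted in the second class, although they are relatives of bacterial S18. The lowest share was in the mitochondria-specific large subunit genes, with 10 of 20 lower (median -0.19), and the highest in the mitochondria-specific small subunit genes, with 7 of 11 (median -0.23). No difference between these classes was tested.

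**Figure D2:**
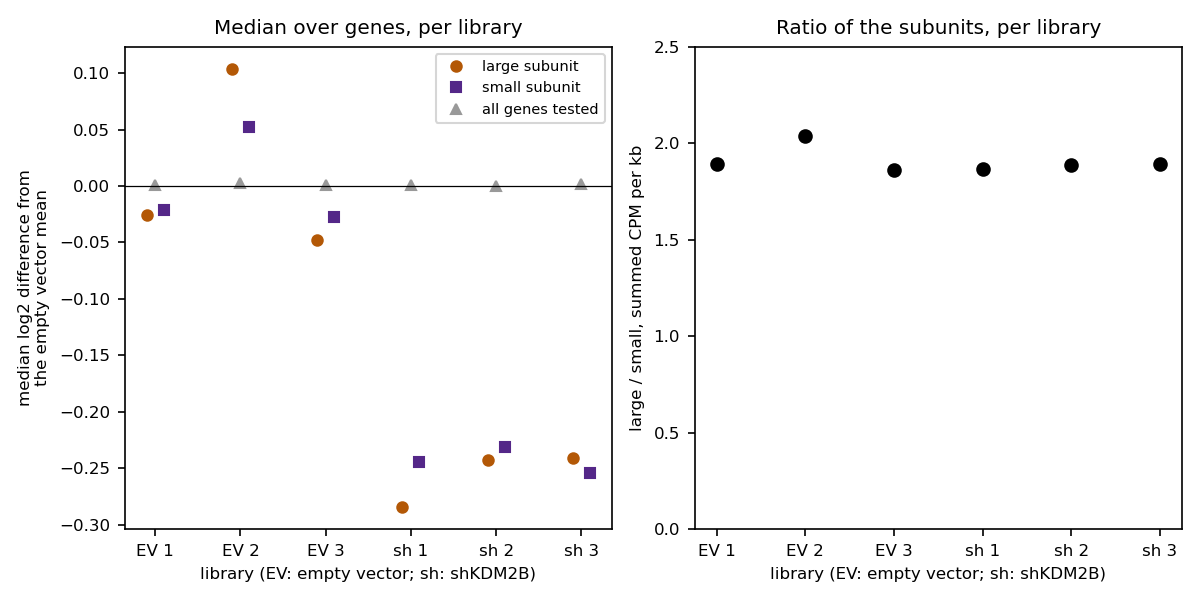
Left: median log2 difference from the empty vector mean in each of the 6 libraries for the large subunit (circles), the small subunit (squares) and all genes tested (triangles). Right: ratio of large to small subunit transcripts per library in summed CPM per kilobase; all 3 shKDM2B values, 1.87 to 1.89, lie within the empty vector range of 1.86 to 2.04.

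Among large subunit genes, MRPL49 had the largest decrease. It encodes mL49, a protein of the large subunit with no bacterial counterpart (chr11:65122183-65127371, plus strand, GRCh38). Its level was 127, 124 and 123 CPM in empty vector and 37.6, 36.7 and 34.2 CPM in shKDM2B. Every shKDM2B library was below every control, and the spread within each group was far smaller than the gap (125 ± 1.77 against 36.2 ± 1.75 CPM, mean ± SD, n = 3 each). The decrease was 3.46-fold, or -1.79 on the log2 scale (SE 0.06), with an edgeR adjusted p of 9.42e-12. Of its exonic bases, 12.2% lie opposite exons of FAU and SYVN1.

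MRPL12 encodes bL12m, the stalk protein that recruits translation factors, and has also been linked to the mitochondrial RNA polymerase (chr17:81703357-81707526, plus strand). It was at 35.7, 47.0 and 35.8 CPM in empty vector and 18.6, 20.2 and 18.8 CPM in shKDM2B. The groups did not overlap, and the highest control was replicate 2. It fell by 1.04 on the log2 scale (SE 0.11), with an edgeR adjusted p of 1.37e-06. The annotation places 68.2% of its exonic bases in AC139530.2 on the same strand, so its counts depend on how shared reads were assigned.

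MRPL21, a homolog of bacterial L21, was at 21.2, 26.8 and 21.4 CPM in empty vector and 13.0, 11.1 and 12.4 CPM in shKDM2B (log2 fold change -0.92, SE 0.11). MRPL24, an RNA-binding protein related to bacterial L24, went from 34.8, 41.1 and 31.3 CPM to 22.1, 21.5 and 21.7 CPM (-0.71, SE 0.10). MRPL11, at the base of the stalk, went from 42.3, 56.1 and 46.7 CPM to 28.7, 30.8 and 33.4 CPM (-0.63, SE 0.10). For these 3 genes the groups were separate, and replicate 2 was again the highest control. None has exons shared with another gene on the same strand. Their adjusted p by edgeR ran from 7.44e-06 to 6.65e-05. They lie at chr11:68891276-68903835, chr1:156737303-156741590 and chr11:66435075-66466738, all on the minus strand.

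At the other end of the called large subunit genes were MRPL10, the stalk base partner of MRPL12 (log2 fold change -0.21, SE 0.07), MRPL39 (-0.20, SE 0.07) and MRPS30, which encodes mL65 (-0.19, SE 0.06). MRPL10 was at 62.6, 76.0 and 70.5 CPM in empty vector and 63.3, 58.1 and 59.5 CPM in shKDM2B, so its groups overlapped. Its adjusted p of 0.0173 by edgeR became 0.0875 without shKDM2B replicate 2 and 0.0743 without shKDM2B replicate 3. MRPL39 lost its call with DESeq2 (adjusted p 0.0796), without empty vector replicate 2 and without shKDM2B replicates 2 or 3, and MRPS30 lost it without shKDM2B replicate 1 (adjusted p 0.0540 by edgeR). MRPL58, which retains the peptidyl-tRNA hydrolase activity of a release factor, was at 33.5, 37.0 and 28.8 CPM and then 25.9, 24.4 and 24.0 CPM. Its groups were separate, and it fell by 0.42 on the log2 scale (SE 0.09, adjusted p 0.00162 by edgeR).

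In the small subunit the largest decrease was that of MRPS21, a homolog of bacterial S21 (chr1:150293720-150308979, plus strand). It was at 9.50, 7.88 and 10.4 CPM in empty vector and 2.91, 3.14 and 4.15 CPM in shKDM2B. All 3 shKDM2B libraries were below the lowest control. The decrease was 2.68-fold (log2 fold change -1.42, SE 0.17, adjusted p 6.54e-06 by edgeR). It was the least abundant of the 10 genes with the largest decreases in either subunit.

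MRPS12 encodes uS12m, which lines the decoding centre and is the homolog of the bacterial protein altered in streptomycin resistance (chr19:38930548-38933162, plus strand). It was at 58.8, 63.4 and 56.9 CPM in empty vector and 31.3, 30.2 and 33.2 CPM in shKDM2B. The groups lay far apart, at 59.7 ± 3.37 and 31.6 ± 1.54 CPM (SD, n = 3 each). It fell by 0.91 on the log2 scale (SE 0.07), with an edgeR adjusted p of 6.15e-08. Exons of SARS2 lie opposite 16.3% of its exonic bases.

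MRPS34, a mitochondria-specific protein needed for a stable small subunit, was at 19.7, 22.9 and 17.2 CPM in empty vector and 14.0, 10.6 and 10.4 CPM in shKDM2B (log2 fold change -0.78, SE 0.13). MRPS9, a homolog of bacterial S9, went from 19.0, 22.9 and 20.5 CPM to 13.9, 13.0 and 11.5 CPM (-0.71, SE 0.11). MRPS26 went from 21.7, 27.5 and 21.7 CPM to 14.6, 15.6 and 14.7 CPM (-0.65, SE 0.11). The groups were separate for all 3, with adjusted p from 5.05e-05 to 1.73e-04 by edgeR. They lie at chr16:1771890-1773155 (minus strand), chr2:105037983-105099960 (plus strand) and chr20:3045945-3048254 (plus strand). The smallest called decreases of the small subunit were MRPS10 (-0.23), MRPS15 (-0.21) and MRPS22 (-0.16), each with separate groups. MRPS22, at an adjusted p of 0.0174 by edgeR, did not pass with DESeq2 (adjusted p 0.0701), without shKDM2B replicate 1 or without shKDM2B replicate 3.

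**Figure D3:**
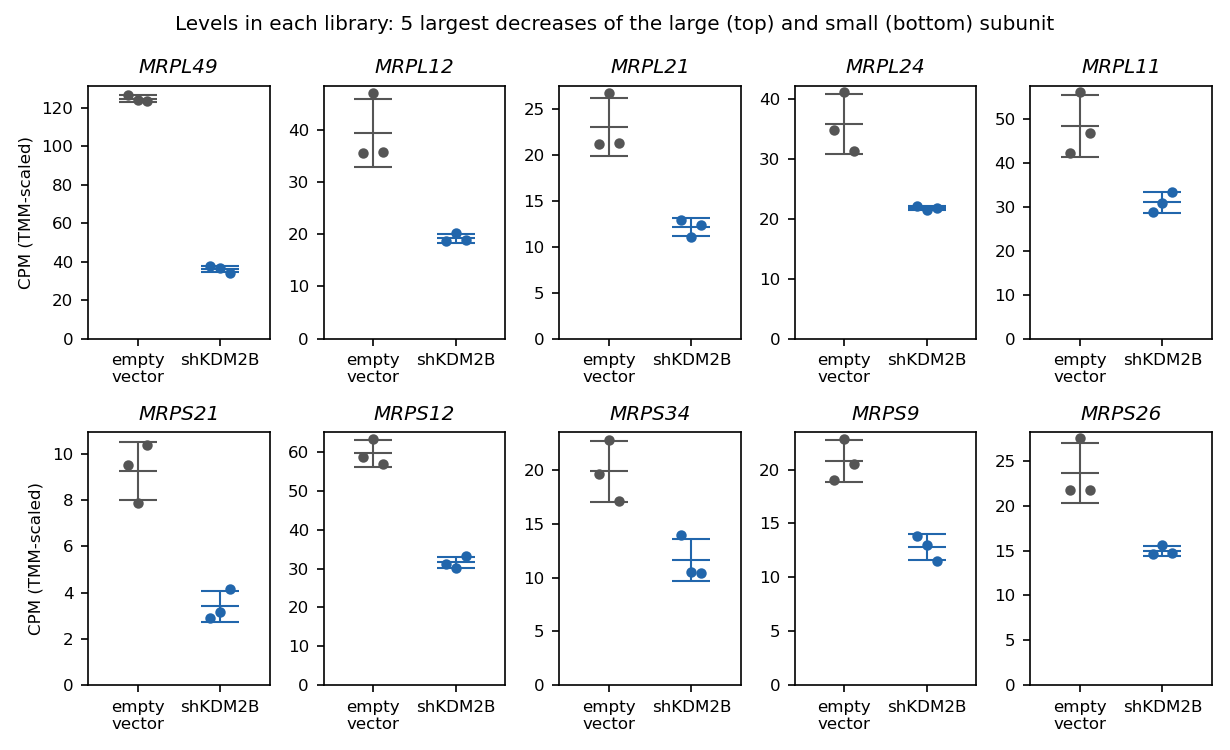
Level in CPM (axis from 0) of the 5 largest decreases of the large subunit (top row) and of the small subunit (bottom row); each point is 1 library, with the group mean and SD as bars. In each of the 10 panels the 3 shKDM2B points lie below the 3 empty vector points, from 125 to 36.2 CPM on average for MRPL49 and from 9.26 to 3.40 CPM for MRPS21.

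The MRPS18 paralogs, relatives of bacterial S18 that occupy different places in the ribosome, differed in their calls. MRPS18C, the small subunit protein in the bacterial position, was at 6.98, 5.89 and 7.001 CPM in empty vector and 4.27, 4.80 and 4.41 CPM in shKDM2B. Its groups were separate and it fell by 0.56 on the log2 scale (SE 0.15, adjusted p 0.00483 by edgeR). MRPS18B was at 138, 139 and 125 CPM and then 136, 131 and 131 CPM (log2 fold change -0.02, SE 0.05), and MRPS18A at 16.2, 13.7 and 14.9 CPM and then 17.9, 14.9 and 15.5 CPM (0.10, SE 0.11). Both had overlapping groups and did not pass the test. The difference between the paralogs was not tested. Exons of ABRAXAS1 lie opposite 40.2% of the exonic bases of MRPS18C, and those of RSPH9 opposite 47.0% of MRPS18A.

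DAP3, a GTP-binding small subunit protein first described in apoptosis, was at 126, 138 and 126 CPM in empty vector and 138, 123 and 129 CPM in shKDM2B. The groups overlapped, and on the log2 scale the difference was -0.0045 (SE 0.06; edgeR adjusted p 0.953). The other members of this paragraph were chosen after their values were seen. MRPL45, which sits at the tunnel exit by the membrane, had overlapping groups and a log2 fold change of 0.01 (SE 0.05). MRPS16, a bacterial S16 homolog, was at 94.8, 99.6 and 94.4 CPM in empty vector and 101, 107 and 105 CPM in shKDM2B. Its shKDM2B libraries all lay above the controls, but it did not pass (0.12, SE 0.05, adjusted p 0.0678 by edgeR). MRPS17 (0.27, SE 0.11) and MRPL54 (0.26, SE 0.11) were the next most positive among members after MRPS24 (0.32, SE 0.29), and did not pass at adjusted p 0.0572, 0.0608 and 0.360 by edgeR. MRPL54 passed as higher with limma-voom. Other genes on the same strand share 27.0% of the exonic bases of MRPS17 and 23.2% of those of MRPS24. MRPS24 had only 16 to 51 counts in a library. MRPS36, the dehydrogenase subunit, fell from 9.04 ± 1.00 to 6.63 ± 1.16 CPM, which is -0.42 on the log2 scale (SE 0.15) with an edgeR adjusted p of 0.0276.

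Subunits with symbols outside the rule were listed beside the members. GADD45GIP1 of the large subunit and CHCHD1, AURKAIP1 and PTCD3 of the small subunit gave 0 of 4 called by edgeR, with 1 at an unadjusted p under 0.05. Of all genes tested, 60.9% were called in either direction. PTCD3, a pentatricopeptide repeat protein, was counted 1298, 1311 and 1691 times and then 1387, 1530 and 2070 times, or 124 ± 1.91 and 134 ± 0.485 CPM (log2 fold change 0.11, SE 0.05). It passed as higher only when empty vector replicate 2 was left out (adjusted p 0.0226 by edgeR). GADD45GIP1 had counts from 112 to 277 in empty vector and from 158 to 361 in shKDM2B (0.34, SE 0.45). AURKAIP1 (-0.06, SE 0.12) and CHCHD1 (-0.06, SE 0.16) had overlapping groups.

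Levels per length spanned a wide range. In empty vector the highest members were MRPS10 at 87.5 CPM per kilobase of exon, MRPL37 at 82.3, MRPS18B at 71.1, MRPL3 at 69.0 and MRPL45 at 64.7, and the lowest with counts were MRPL38 at 0.692 and MRPS24 at 0.806. MRPS10 had 190, 170 and 194 CPM in empty vector and 155, 157 and 161 CPM in shKDM2B. MRPL37, mitochondria-specific, had 203, 225 and 201 CPM and then 179, 167 and 176 CPM (log2 fold change -0.27). MRPL3, which reaches towards the peptidyl transferase centre, had 195, 184 and 184 CPM and then 158, 147 and 157 CPM (-0.28). The groups were separate for these 3 genes. The exon length here is that of all annotated exons merged, so levels of genes with long alternative exons are understated. MRPL53 had 0 counts in all 6 libraries, which allows up to 0.195 to 0.291 CPM per library (3 counts, counting error only). In the annotation 45.2% of its exonic bases are shared with CCDC142 on the same strand. Other genes on the same strand share 37.5% of the exonic bases of MRPL38 and 23.2% of those of MRPS24.

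**Figure D4:**
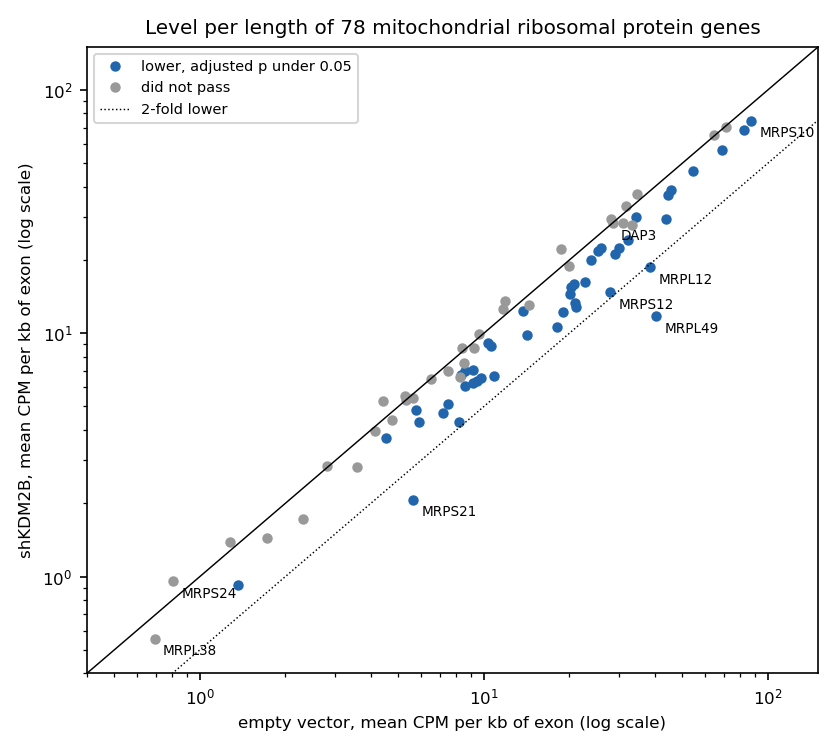
Mean level of the 78 tested members in empty vector (x) and shKDM2B (y) in CPM per kilobase of exon, both on log axes; the solid line is equality and the dotted line a 2-fold decrease. Blue points passed the test as lower; MRPL49, MRPS21 and MRPL12 lie below the dotted line, MRPS10 is the highest, and DAP3 lies at the line of equality.

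Overlap with other genes can move counts, because the counting's strand setting and its treatment of shared reads are unknown. Among the 41 tested members whose exons overlap another gene, 23 were lower (56.1%, median -0.28), and among the 37 with none, 22 were lower (59.5%, median -0.23). Of the 15 that share exonic bases on the same strand, 5 were lower (33.3%, median -0.28), near the 30.4% of all genes tested. The 81 pseudogene rows of the family held at most 19 counts in a library and together 0.117% of the members' counts, and 7 antisense or other noncoding rows held 0.252%.

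Head-to-head gene pairs, in which 2 genes start close together on opposite strands and can share a promoter, were frequent: 22 of 71 members (31.0%) had such a partner, against 12.6% of the 15843 genes of the RefSeq table. A partner was a start on the opposite strand no more than 1000 bases upstream or 200 bases downstream. These formed 21 pairs, since MRPL46 and MRPS11 are each other's partner, and 20 partners could be tested. Both genes were lower in 4 pairs, the member was lower and the partner higher in 2, and the member was lower with a partner that did not pass in 5. In 3 pairs only the partner was lower, in 2 only the partner was higher, and in 4 neither passed. Over all genes tested, 30.4% were lower and 30.5% higher, and the pairs were not tested against these shares. Members with a partner (12 of 22 lower, median -0.26) and without one (28 of 48, median -0.24) gave close shares.

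MRPL49 starts 49 bases from FAU, which encodes a ubiquitin-like protein fused to the cytosolic ribosomal protein eS30. FAU was counted 724, 938 and 927 times in empty vector and 533, 718 and 815 times in shKDM2B, which corresponds to 75.4 ± 11.95 and 55.7 ± 6.03 CPM. FAU fell by 0.43 on the log2 scale (SE 0.11), beside -1.79 for MRPL49. MRPS27, a pentatricopeptide repeat protein of the small subunit, went from 281, 280 and 296 CPM to 188, 189 and 196 CPM (log2 fold change -0.58, SE 0.05). Its partner PTCD2, also a pentatricopeptide repeat protein of mitochondria, went from 31.6 ± 1.05 to 13.1 ± 1.80 CPM (-1.29, SE 0.10). The other pairs with both genes lower were MRPL18 with the chaperonin subunit TCP1 (-0.45 and -0.29) and MRPL37 with CYB5RL (-0.27 and -1.20). The 2 pairs with the member lower and the partner higher were MRPL51 with the condensin subunit NCAPD2 (-0.49 and 0.17) and MRPS18C with the helicase HELQ (-0.56 and 0.27). MRPS12 fell, and its partner SARS2, the mitochondrial seryl-tRNA synthetase, did not pass, at 5.67 ± 0.422 and 6.86 ± 1.02 CPM (0.27, SE 0.15, adjusted p 0.145 by edgeR). MRPL27 did not pass (0.05, SE 0.08), while its partner EME1 fell by 0.78 (SE 0.14).

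**Figure D5:**
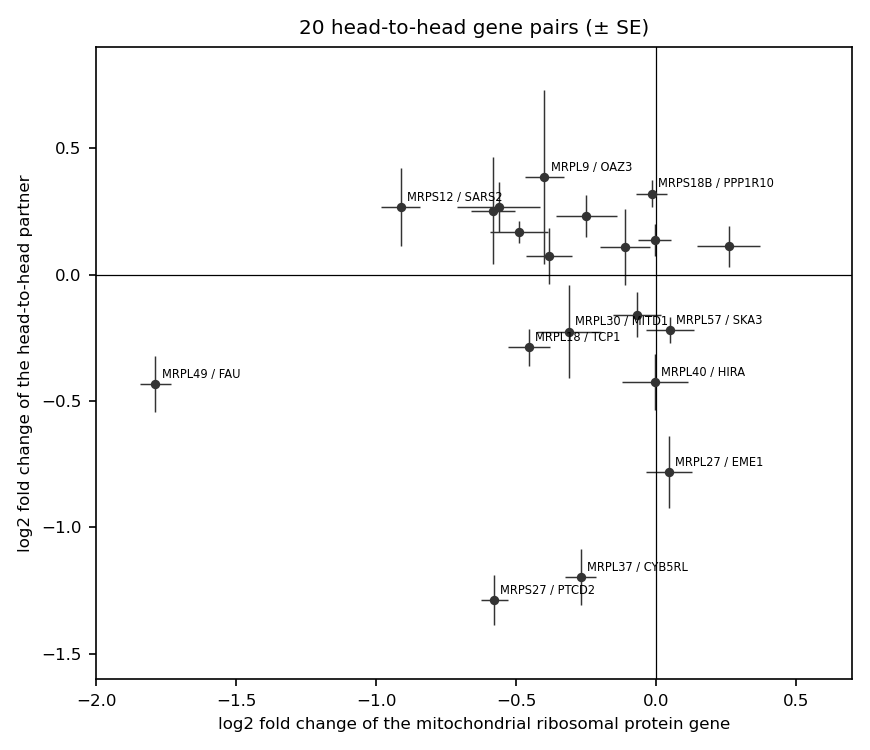
Log2 fold change of the member (x) against that of its head-to-head partner (y) for the 20 pairs tested, with SE bars and selected pairs named. Points are in all 4 quadrants; MRPL49 with FAU is at -1.79 and -0.43, and MRPS12 with SARS2 at -0.91 and 0.27.

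The hexamer CGACAC was looked up in annotated 3' UTRs because earlier results of these data had linked it with lower counts. It was present in 3 of 78 members (3.85%) and in 3.86% of all protein-coding genes with an annotated 3' UTR. The 3 sites are shown, with the hexamer in capitals and 12 bases on each side, from GENCODE 29 on GRCh38. Of these genes MRPL49 was lower, and MRPL27 (log2 fold change 0.05) and MRPS33 (-0.22) did not pass. The earlier link came from the same data, so these calls are no separate test of it. Among the 75 tested members without the hexamer, 44 were lower (median -0.26).
MRPL27: gggttggggtggCGACACggcctcccgagg
MRPL49: cagcaaggagccCGACACtgatttgatcga
MRPS33: ctgccatgtgctCGACACgtgatagttgta

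Other genes of mitochondrial translation were read from lists, against the 30.4% of all genes tested that were lower and the 30.5% that were higher. Of 27 tested genes for ribosome assembly and ribosomal RNA modification, 9 were lower (33.3%) and 5 higher (18.5%); the median was -0.09, and the share of lower genes was near that of all genes. MALSU1, which binds the large subunit and blocks premature joining, was counted 239, 275 and 307 times and then 92, 114 and 143 times, a decrease of 2.53-fold (log2 fold change -1.34; edgeR adjusted p 6.58e-08). MTERF3, a regulator of mitochondrial transcription and ribosome biogenesis, fell by 0.69 (SE 0.10). Of 17 translation factors, 7 were lower (41.2%) and 3 higher (17.6%), and the median was -0.19. Among them were MTFMT, which formylates the initiator methionyl-tRNA, at -0.89 (SE 0.15) and the ribosome rescue factor MTRFR at -0.61 (SE 0.08).

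Of 21 genes for mitochondrial transcription and RNA processing, 7 were lower (33.3%) and 5 higher (23.8%); the median was -0.05, and the shares stood near those of all genes (30.4% and 30.5%). PTCD2 was at -1.29 and FASTKD3 at -0.68 on the log2 scale. Genes for protein import and the outer membrane had a share close to that of the members, with 15 of 26 lower (57.7%) and 2 higher (7.69%), and a median of -0.29. TIMM44, which tethers the import motor, went from 71.8 ± 8.75 to 41.4 ± 3.01 CPM (-0.79, SE 0.08), and the small chaperone TIMM8B was at -0.66 (SE 0.15). Of 14 regulators of mitochondrial gene expression, 4 were lower (28.6%, near the 30.4% of all genes) and 2 higher (14.3%), and the median was -0.08. MYC fell from 260 ± 12.8 to 141 ± 4.70 CPM (-0.88, SE 0.05), and the coactivator PPRC1 from 211 ± 1.45 to 125 ± 0.612 CPM (-0.75, SE 0.05). The largest change of this list was in PPARGC1A, a coactivator of mitochondrial biogenesis that lies under the level set for naming genes. It rose from 2.98 ± 0.422 to 6.69 ± 0.219 CPM (1.15, SE 0.16, adjusted p 3.00e-05 by edgeR).

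Of the 13 genes whose messenger RNAs these ribosomes translate, 4 were called higher (30.8%, where 30.5% of all genes tested were). Their fitted log2 fold changes were all positive (0.79 to 1.93, median 1.30). The shKDM2B libraries lay above the controls for 6 of the 13, where 33.0% of all genes tested did so. MT-ND4L, a complex I subunit, was counted 30, 13 and 46 times in empty vector and 100, 62 and 129 times in shKDM2B (1.61, SE 0.29, adjusted p 4.67e-04 by edgeR). MT-ND1 was counted 137, 56 and 124 times and then 560, 216 and 506 times (1.93, SE 0.57, adjusted p 0.0421 by edgeR), and lost its call in 7 of 14 alternatives, among them each omission of 1 empty vector library. The ribosomal RNAs themselves cannot be read for level, since the libraries were depleted of ribosomal RNA. MT-RNR1 had 911, 291 and 114 counts in empty vector and 12857, 43 and 41 in shKDM2B, so a single library held most of its counts and the other shKDM2B libraries lay below every control. Neither it nor MT-RNR2 passed the test.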

How the data were processed

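RNA was sequenced from 6 libraries after ribosomal RNA depletion, per the labels. The authors deposited raw read counts per gene. The build was GRCh38, per the submitters' processing notes, which list STAR and featureCounts among the tools; the sources used here give no versions, roles, strand setting or annotation. Columns were matched by name; those of the knockdown read sh, a code and a number, and were taken as shKDM2B, the only hairpin group. Symbols matched 61415 of 61533 identifiers, and GENCODE 29 held 58356. Replicates are labelled biological without stating separate cultures, so p-values measure only library-to-library spread, which could be technical.

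Genes passing filterByExpr (minimum count 10, total 15) were scaled by TMM and tested two-sided in edgeR 4.0.16 (R 4.3.3) by its quasi-likelihood method, with Benjamini-Hochberg adjustment over 14071 genes. The SE is the absolute log2 fold change over the root of F. Per-library medians used log2(CPM + 0.5). The fit was first tested on simulated counts, in 5 runs with 200 genes changed. Of all calls, 7.06% were false. Of the changed genes, 17.1% were recovered at 1.2-fold, 70.3% at 1.5-fold and 87.3% at 2-fold. Far more genes were called in the data, so these shares may differ there.

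The members and lists were chosen with earlier results of these data known. Named were KDM2B, in each subunit the 5 most negative and 3 least negative called members at 5 CPM or more (no called member was positive), DAP3, the MRPS18 paralogs, MRPS30, MRPL12, MRPL58, the 4 subunits with other symbols, and in each list the 2 largest called changes at that level; others were chosen after their values were seen. Alternatives were DESeq2 size factors, upper-quartile scaling, no filter, a filter of 1 CPM, DESeq2 1.42.0, limma-voom (limma 3.58.1), a test against a 1.2-fold change, a replicate block, omission of each library, and omission of members with overlapping exons or the hexamer.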

Additional observations from a re-analysis of the deposited data

How the results depend on the processing

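The negative median of the members and of both subunits held under every alternative run, from -0.30 (without empty vector replicate 3) to -0.22 (without empty vector replicate 2) for the members. The count of 45 lower members was between 38 and 47 when each library was left out, 40 with DESeq2, and between 45 and 47 with the other scalings, filters and limma-voom; 34 of the 45 were lower in all 13 alternatives other than the test against a 1.2-fold change. That test called 5458 genes in either direction in place of 8571, and 2661 of them were lower (18.9% of all genes tested). It called 24 of the 78 tested members lower, 15 of the large and 9 of the small subunit. It asks for a larger change. Omitting members whose exons overlap another gene left 22 lower, 14 large and 7 small, out of fewer genes. The number called higher was 1 (MRPL54) with limma-voom and 1 with a replicate block, and 0 to 6 when each library was left out; the cause was not tested. With the block 47 members were lower. Same-numbered libraries had correlations of their deviations of 0.12, -0.03 and 0.08, so the numbers were not taken as pairs. Leaving out libraries turned the sign of 4 log2 fold changes that had no call: DAP3 ranged from -0.045 to 0.037, with 0.032 and 0.00016 without empty vector replicate 2 and shKDM2B replicate 3, MRPS18B from -0.070 to 0.0040, CHCHD1 from -0.19 to 0.057, with 0.024 without shKDM2B replicate 2, and AURKAIP1 from -0.18 to 0.12. The positive ends are without empty vector replicate 2, for DAP3 without shKDM2B replicate 2. Of 518 values of 37 named genes under alternatives, 487 kept direction and call, 23 lost the call and 1 gained one. Depth limits genes such as MRPL38 and MRPS24, near 2 CPM.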
